A study of Oryza sativa Indica Group with 9 samples.

Results

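miR162 and miR168 are the plant miRNA families best known for acting on the small RNA machinery itself. In plants such as Arabidopsis and rice, miR162 targets the transcript of DICER-LIKE1, the enzyme that cuts miRNAs out of their hairpin precursors. miR168 targets transcripts of ARGONAUTE1, the protein that holds a mature miRNA and cleaves its targets. Each family therefore takes part in a feedback loop in which a product of the pathway acts on a transcript the pathway needs. A miRNA hairpin has a 5′ and a 3′ arm, and in both families 1 arm is known as the guide, the 3′ arm for miR162 and the 5′ arm for miR168.

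The members were taken from the authors' list of mature sequences by family, miR162 or miR168 and no other number, which gave 7 of 483 distinct sequences, 5 of miR162 and 2 of miR168. They were followed in leaves of HT54, a heat-tolerant breeding line of Indica rice. Seedlings with 3 leaves went into heat of 45 °C and were sampled before it (0 h), after 12 h and after 24 h. Each time point had 2 small RNA libraries (replicates 1 and 3, values given in that order) and 1 degradome library, which records the 5′ ends of cleaved polyadenylated RNA. The labels call the samples of a time point independent, and they state that 1 further small RNA library per time point was left out as unsuitable. All groups are the same line, and none of the samples is an unheated control of 12 or 24 h, so heat and elapsed time cannot be told apart.

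The 5 sequences of miR162 are shown because the family splits by a single base of the seed (bases 2 to 8, in capitals), counted from 1 at the 5′ end.
osa-miR162a: tCGATAAAcctctgcatccag
osa-miR162b: tCGATAAGcctctgcatccag
tcc-miR162_R+1: tCGATAAAcctctgcatccaga
lus-miR162a_R+2: tCGATAAAcctctgcatccagca
zma-miR162-3p_R+1_1ss20AG: tCGATAAAcctctgcatccgg
osa-miR162b differs from osa-miR162a by A8G (osa-miR162a base first), inside the seed, so the family holds 2 seeds. The other 3 sequences keep the seed of osa-miR162a. tcc-miR162_R+1 and lus-miR162a_R+2 carry 1 and 2 added bases at the 3′ end, and zma-miR162-3p_R+1_1ss20AG differs by A20G. Sequences this alike can share reads, and how the authors' counting divided reads among them is uncertain. The prefixes tcc, lus and zma are the authors' and are those of the database entries the sequences were matched to.

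The 2 sequences of miR168 come from the arms of 1 hairpin and are shown for their unequal length, 21 nt for the 5′ arm and 24 nt for the 3′ arm.
osa-miR168a-5p: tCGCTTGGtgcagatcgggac
osa-miR168a-3p: gATCCCGCcttgcaccaagtgaat
No sequence outside these families in the list of 483 shared any of their seeds.

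The hairpins show where the sequences sit (mature sequences in capitals). The coordinates are the authors', and the sources used here name no genome build for them. osa-MIR162a lay on the plus strand of chromosome 2 (23605799 to 23605969) and osa-MIR162b on the plus strand of chromosome 4 (24405899 to 24406032). osa-MIR168a lay on the minus strand of chromosome 2 (1553146 to 1553246).
osa-MIR162a: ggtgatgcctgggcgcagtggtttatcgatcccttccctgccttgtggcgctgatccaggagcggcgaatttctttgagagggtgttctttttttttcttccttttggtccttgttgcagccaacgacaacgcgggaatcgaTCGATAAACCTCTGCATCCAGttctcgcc
osa-MIR162b: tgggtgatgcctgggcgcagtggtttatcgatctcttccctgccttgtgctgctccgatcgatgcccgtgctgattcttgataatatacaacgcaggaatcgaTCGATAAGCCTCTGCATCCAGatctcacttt
osa-MIR168a: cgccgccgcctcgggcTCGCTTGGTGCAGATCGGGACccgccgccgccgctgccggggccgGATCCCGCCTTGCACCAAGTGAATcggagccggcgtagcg
Both miR162 hairpins hold the same stretch of 21 bases on the opposite (5′) arm, and base 8 of the mature sequence is paired in both deposited folds. The 3 remaining miR162 sequences had no exact match in any hairpin of the authors' tables, although 2 of them were listed at positions that overlap these loci. The position of tcc-miR162_R+1 overlaps osa-MIR162b, although its seed is that of osa-miR162a. That of zma-miR162-3p_R+1_1ss20AG overlaps osa-MIR162a. For zma-miR162-3p_R+1_1ss20AG the deposited arm was 5′, which goes against the 3p of its name. Its listed stretch (23605940 to 23606081) starts near the 3′ end of the osa-MIR162a hairpin and runs past it. The deposited arm is therefore an arm of that stretch and not of the osa-MIR162a hairpin.

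The 6 small RNA libraries differed widely in depth. The listed miRNAs held between 10314 reads (12 h replicate 3) and 227965 reads (24 h replicate 3), so the floor of 3 counts corresponded to between 16.1 and 195 CPM (reads scaled to a common library total with TMM factors). A read could be divided among matching positions, so the deposited values are estimated counts, and intervals on them cover counting error only. In whole leaves, fewer cells of a type and less RNA per cell cannot be told apart. Of the families that mark panicle, another organ, the list held 3 sequences of miR2118 and 0 of miR2275. Their summed reads, not scaled for depth, were 58.8 and 475 in the 0 h leaves, 241 and 10.5 in the 12 h leaves, and 165 and 1136 in the 24 h leaves. In every library most of them came from osa-MIR2118e-p5_2ss12TA18CT, with 34 and 384, 184 and 6, and 152 and 1029 reads. The part of these sequences in the values here was not tested.

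No member of either family passed the test in any comparison. With edgeR's quasi-likelihood test and a Benjamini-Hochberg adjusted p under 0.05 over all sequences, 0 of the 7 members were called at 12 h against 0 h, where 3.27% of all 459 tested sequences were. At 24 h against 0 h 0 of 7 were called against 9.59% of all sequences, and at 24 h against 12 h 0 of 7 against 0.218%. Of the 4 family arms, 0 were called, against 2.69%, 11.8% and 0% of all 186 arms at 12 h against 0 h, 24 h against 0 h and 24 h against 12 h. Arms were taken as deposited, so the 5′ arm of miR162 held only zma-miR162-3p_R+1_1ss20AG, whose name gives the 3′ arm. In each comparison 0 of the 7 members had an unadjusted p under 0.05. DESeq2 called 0 in each comparison, of 7 members with an adjusted p at 12 h against 0 h and at 24 h against 12 h and of 5 at 24 h against 0 h. The median log2 change of the members was −0.43 at 12 h against 0 h (−0.03 for all sequences), −0.13 at 24 h against 0 h (0.00 for all) and 0.23 at 24 h against 12 h (0.01 for all). By position alone, both 12 h libraries lay below both 0 h libraries for 4 of the 7 members, all of miR162, against 24.4% of all sequences, and above them for 1 member, against 17.2%. Of these, lus-miR162a_R+2 (below) rested on 0 reads in 12 h replicate 3. tcc-miR162_R+1 (below) and zma-miR162-3p_R+1_1ss20AG (above) rested on 2 reads each in that library. All were under the floor of 3 counts, so their position there cannot be read as a difference. Both 24 h libraries lay below both 0 h libraries for 3 members, against 27.7%, and above them for 0, against 26.6%. The 3 were osa-miR162b, lus-miR162a_R+2, with 1 read in 24 h replicate 1, and zma-miR162-3p_R+1_1ss20AG, with 3 reads there. The last had 85.9 CPM in 24 h replicate 3, barely under the 86.1 CPM of 0 h replicate 3. On the authors' normalized values 2 members lay below, osa-miR162b and lus-miR162a_R+2, against 23.7% of all sequences. All 7 members passed the filter of at least 10 reads in at least 2 libraries. The standard errors (SE), taken from a spread shared over sequences, ran from 0.72 to 0.99 on the log2 scale. A p that misses the threshold does not show equal levels.

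**Figure D1:**
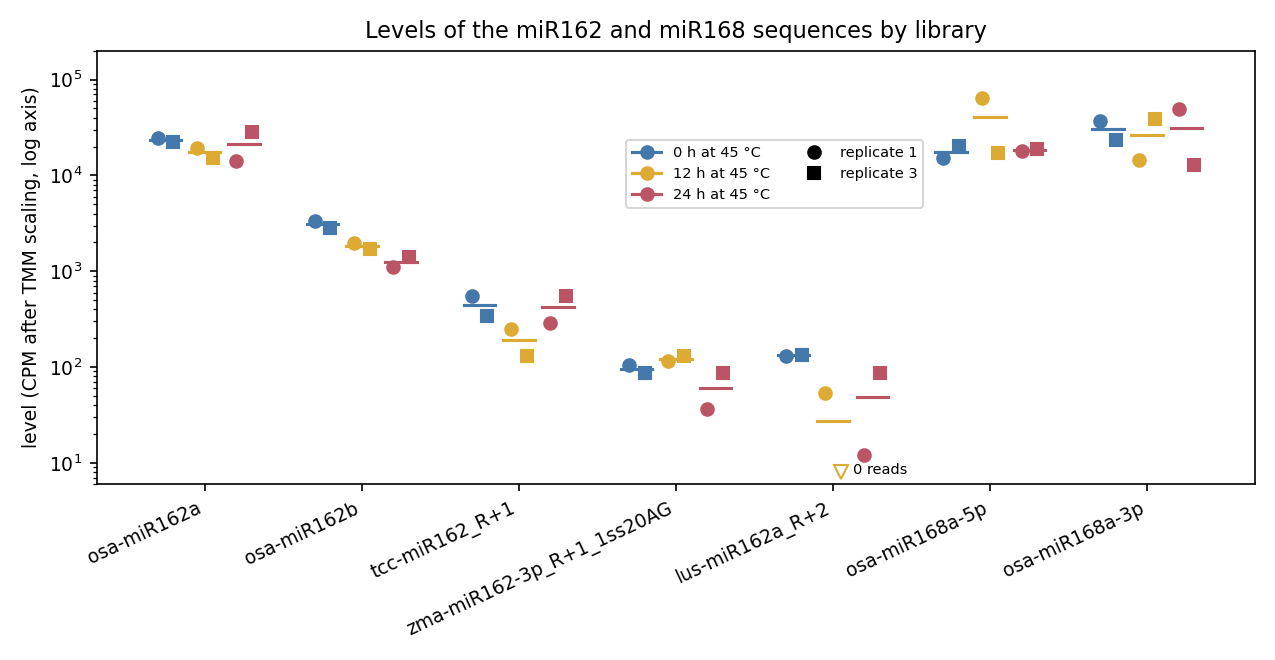
Level of each miR162 and miR168 sequence in the 6 small RNA libraries, in CPM on a log axis. Circles are replicate 1, squares replicate 3, horizontal lines the means of 2 libraries, and the open triangle marks the library with 0 reads of lus-miR162a_R+2. Levels of osa-miR162b step down from 0 h to 12 h to 24 h without overlap. Both arms of miR168a lie apart between replicates at 12 h, and osa-miR168a-3p does so at 24 h as well.

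osa-miR162a, the guide of its family in rice and the form that carries most of the family, was among the abundant miRNAs of the leaf. It made up 90.1% of all miR162 reads and ranked between 6 and 13 of 459 sequences by CPM in every library. Its level was 24307 and 22484 CPM in the 0 h leaves, 19475 and 15284 in the 12 h leaves, and 14161 and 28491 in the 24 h leaves. Both 12 h libraries lay below both 0 h libraries, whereas the 24 h libraries lay on either side of them. The log2 change was −0.43 ± 0.73 at 12 h (SE; edgeR's quasi-likelihood test with 2 libraries a time point gave an adjusted p of 0.868) and −0.13 ± 0.73 at 24 h (adjusted p = 0.959), both against 0 h. The value at 24 h was 0.25 without 24 h replicate 1 and −0.58 without 24 h replicate 3.

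osa-miR162b, from the second hairpin, was the member whose time points stood apart. Its level was 3346 and 2832 CPM in the 0 h leaves, 1964 and 1691 in the 12 h leaves, and 1110 and 1396 in the 24 h leaves. Every library of a later time point lay below every library of an earlier one, an order shown by 1 of the 7 members and by 2.61% of all 459 sequences. The log2 change against 0 h was −0.75 ± 0.72 at 12 h (SE, adjusted p = 0.690, edgeR's quasi-likelihood test) and −1.30 ± 0.72 at 24 h (adjusted p = 0.274), so neither passed. In the authors' deposited table the analysis of variance over the 3 time points gave this sequence a p of 0.0147, the only one of the 7 members at or under 0.05, against 9.11% of all 483 sequences. As a percentage of the listed reads the same order held (4.58% of all sequences showed it). With the authors' normalized values 0 of the 7 members showed it (1.31% of all sequences), since the 12 h and 24 h libraries of osa-miR162b overlapped, at 78.2 and 121 for 24 h against 131 and 108 for 12 h, while all 4 stayed below the 0 h values of 230 and 223.

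The share of osa-miR162b among the reads of osa-miR162a and osa-miR162b does not depend on the scaling between libraries. It can depend on how the authors divided reads, which is uncertain. The values of both sequences were not whole numbers in any library but 12 h replicate 3 (127.5 and 929.5 for osa-miR162b and osa-miR162a in 0 h replicate 1). At 0 h it was 12.1% (exact 95% interval 10.2 to 14.2%) in replicate 1 and 11.2% (10.01 to 12.4%) in replicate 3. At 12 h it was 9.15% (8.18 to 10.2%) and 9.96% (6.61 to 14.3%), and at 24 h 7.30% (5.89 to 8.83%) and 4.68% (4.13 to 5.26%). The point values of the time points did not overlap, and both 24 h shares lay below the intervals of both 0 h shares. The wide interval of 12 h replicate 3 held both 0 h shares and the 24 h share of replicate 1. How often other pairs of sequences keep their time points apart in this way was not computed. As log2 ratios of osa-miR162b to osa-miR162a the means were −2.93 ± 0.09 at 0 h, −3.24 ± 0.10 at 12 h and −4.01 ± 0.48 at 24 h (SD, n = 2 libraries), a difference of −1.08 at 24 h against 0 h. An exact permutation test over the 90 arrangements of the 6 libraries gave p = 0.0667, the smallest value this design allows, or 0.133 adjusted over the 2 ratios tested. This ratio and the arm ratio of miR168a were chosen for testing after their values were seen.

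**Figure D2:**
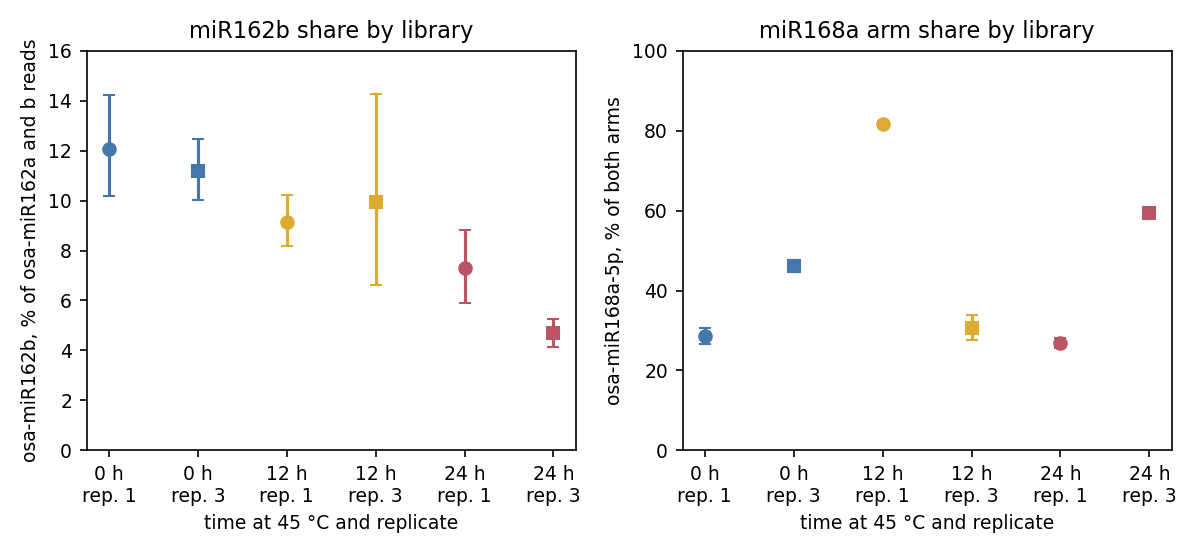
Share of osa-miR162b among osa-miR162a and osa-miR162b reads (left) and of osa-miR168a-5p among the reads of both arms (right), in percent, for each library ordered by time at 45 °C. Bars are exact 95% binomial intervals, which cover counting error only. The osa-miR162b share was lowest in the 24 h libraries (7.30% and 4.68%), while the 5′ arm share of miR168a ran from 30.6% to 81.6% within 12 h.

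The 3 minor miR162 sequences had 44 to 223 reads in all. tcc-miR162_R+1, with 1 added base, had 549 and 344 CPM in the 0 h leaves. It had 251 and 130 CPM in the 12 h leaves and 289 and 553 in the 24 h leaves. The 130 CPM of 12 h replicate 3 came from 2 reads, under the floor of 195 CPM there. Only 12 h replicate 1 could therefore be placed below 0 h, and 24 h overlapped with 0 h. lus-miR162a_R+2 had 5 and 14 reads in the 0 h leaves, 8 and 0 in the 12 h leaves, and 1 and 16 in the 24 h leaves. The 0 reads of 12 h replicate 3 allow up to 195 CPM, above the 131 and 134 CPM of the 0 h libraries, so no difference was detectable in that library. zma-miR162-3p_R+1_1ss20AG had 2 to 17 reads per library, and its share of the reads of osa-miR162a and itself was between 0.255% and 0.844%. The share of tcc-miR162_R+1, counted the same way, was between 0.844% and 2.21%, with 2.21% and 1.51% in the 0 h leaves, 1.27% and 0.844% in the 12 h leaves, and 2.00% and 1.90% in the 24 h leaves. The 0.844% of tcc-miR162_R+1 in 12 h replicate 3 rested on 2 reads (exact 95% interval 0.102 to 3.01%). Both 24 h intervals of the tcc-miR162_R+1 share (1.29 to 2.97% and 1.56 to 2.31%) overlapped both 0 h intervals (1.37 to 3.36% and 1.06 to 2.08%).

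As a family, miR162 had 30370 and 25360 CPM in the 0 h leaves, 17884 and 21548 in the 12 h leaves, and 14710 and 32599 in the 24 h leaves. The log2 change was −0.50 ± 0.56 at 12 h and −0.24 ± 0.56 at 24 h against 0 h (SE, adjusted p = 0.711 and 0.883, edgeR's quasi-likelihood test over 124 families). It was not among the 3.23% and 14.5% of families called in these comparisons, nor among the 1.61% called at 24 h against 12 h (0.26 ± 0.56).

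miR168 was the more abundant family, with ranks between 3 and 6 of 124 families by CPM in every library, where miR162 ranked 8 to 12. Its level was 56074 and 42986 CPM in the 0 h leaves, 64852 and 69360 in the 12 h leaves, and 63474 and 33760 in the 24 h leaves. On this scale both 12 h libraries lay above the other 4, by little over 24 h replicate 1, as in 4.84% of all families. On the authors' normalized values, a check chosen after seeing the data, the family did not show this (4.03% of families did): its sums were 3618 and 3454 in the 0 h leaves, 5278 and 3549 in the 12 h leaves, and 4727 and 2741 in the 24 h leaves. The log2 change was 0.44 ± 0.45 at 12 h and −0.03 ± 0.44 at 24 h against 0 h (SE, adjusted p = 0.684 and 0.994, edgeR's quasi-likelihood test). At 24 h against 12 h it was −0.46 ± 0.45 (adjusted p = 0.746).

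**Figure D3:**
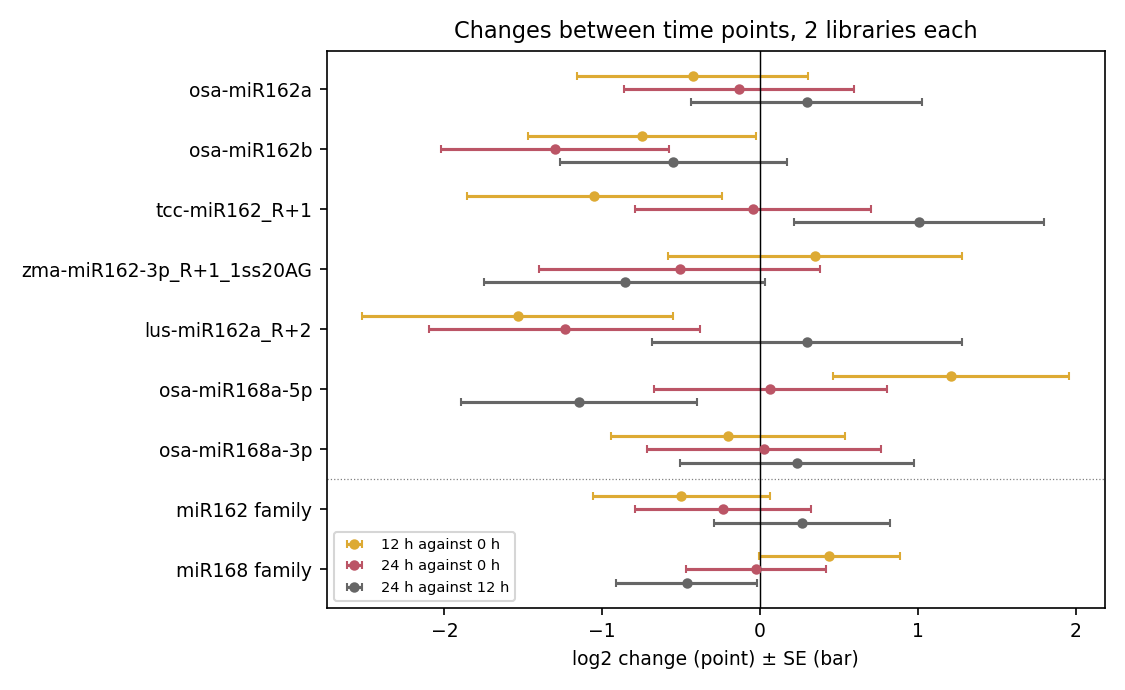
Log2 change of each member sequence and of both families between time points (points) with the SE of the fit (bars, n = 2 libraries per time point). The fits for sequences (above the dotted line) and families (below it) share their spread over all sequences or all families, and 0 of the 7 sequences and 0 of the 2 families passed an adjusted p of 0.05.

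The arms of miR168a had different profiles over the libraries. osa-miR168a-5p, the arm known to guide cleavage of ARGONAUTE1 transcripts, had 15055 and 20254 CPM in the 0 h leaves, 64694 and 16975 in the 12 h leaves, and 18081 and 18863 in the 24 h leaves. In CPM a single library, 12 h replicate 1, stood at over 3 times the next highest, and the other 5 lay within 15055 to 20254 CPM. On the authors' normalized values that library was at 4309 and the next highest, 24 h replicate 3, at 1631, a smaller factor. The log2 change at 12 h against 0 h was 1.21 ± 0.75 (SE, adjusted p = 0.438, edgeR's quasi-likelihood test) and 0.18 without 12 h replicate 1. osa-miR168a-3p, the opposite arm, had 37402 and 23613 CPM in the 0 h leaves, 14545 and 38502 in the 12 h leaves, and 49322 and 12839 in the 24 h leaves. It was low where the 5′ arm was highest, and its heated libraries spanned the unheated ones. Its log2 change at 24 h against 0 h was 0.03 ± 0.74 (adjusted p = 0.998), −1.30 without 24 h replicate 1 and 0.82 without 24 h replicate 3. Across the 6 libraries the log2 CPM values of the arms had a Pearson r of −0.59, a description of libraries that share their scaling and differ in depth.

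The 5′ arm held 28.7% and 46.2% of the reads of both arms in the 0 h leaves, 81.6% and 30.6% in the 12 h leaves, and 26.8% and 59.5% in the 24 h leaves. It was the lesser arm in 4 of 6 libraries and the greater one in 12 h replicate 1 and 24 h replicate 3. The log2 ratio of the arms averaged −0.77 ± 0.77 at 0 h, 0.49 ± 2.36 at 12 h and −0.45 ± 1.42 at 24 h (SD, n = 2 libraries), and the exact permutation test over time points gave p = 0.733. The differences between time points, up to 1.25 for 12 h against 0 h, were smaller than the SD at 12 h. The sum of the arms was steadier at 12 h than either arm, at 7.96% and 8.27% of the listed reads, against 6.50% and 2.53% for osa-miR168a-5p and 1.46% and 5.74% for osa-miR168a-3p. At the other time points it lay further apart than osa-miR168a-5p, though closer together than osa-miR168a-3p. The sum was 5.97% and 4.47% at 0 h and 4.68% and 2.59% at 24 h. osa-miR168a-5p was at 1.71% and 2.07%, then 1.26% and 1.54%. osa-miR168a-3p was at 4.26% and 2.41%, then 3.43% and 1.05%.

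Set against other miRNAs, this gap between replicates was wide. Among 66 pairs of a 5′ and a 3′ sequence from 1 hairpin with at least 100 reads each, miR168a ranked 1 by the size of the difference in log2 arm ratio between the 12 h libraries, at 3.33. The next were −3.32 for the pair of candidates PC-5p-195376_8 and PC-3p-53246_81 and 3.05 for osa-miR6251 and its opposite arm. By the range over all 6 libraries miR168a ranked 5, at 3.60. These ranks are descriptions made after the values were seen, and some pairs share a sequence.

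**Figure D4:**
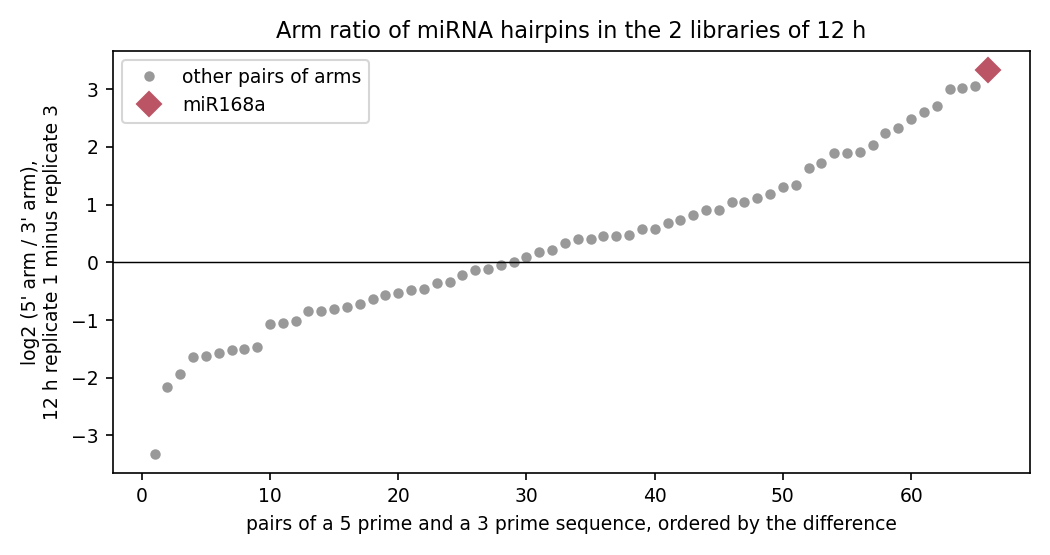
Difference in the log2 ratio of the 5′ to the 3′ arm between replicates 1 and 3 of 12 h, for 66 pairs of arms in ascending order (pseudocount 0.5). The diamond is miR168a, at 3.33, the highest of the pairs; zero means the same arm ratio in both libraries.

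The arms of miR168a differ in length, and length classes also differed between the libraries. Without the members, sequences of 24 nt made up 10.1% and 6.57% of the listed reads in the 0 h leaves, 7.86% and 17.3% in the 12 h leaves, and 6.58% and 4.90% in the 24 h leaves. Sequences of 21 nt made up 55.2% and 52.9%, 72.6% and 54.4%, and 82.1% and 79.3%. The library with the highest 24 nt share, 12 h replicate 3, was also the shallowest and had a low 5′ arm share. 24 h replicate 1 had the lowest 5′ arm share with a 24 nt share of 6.58%. The part of length and depth in the arm ratio was not tested.

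The sequences whose levels over the 6 libraries were most like those of osa-miR162a, among 387 others with a mean of at least 100 CPM, were osa-miR167d-5p_R+1 (Pearson r = 0.94 of log2 CPM), gma-MIR5368-p3_1ss3TC (0.92) and mtr-miR171c_R+1_2ss17AT19AT (0.88). For osa-miR168a-3p, the sequence of its family with the higher mean CPM, they were osa-MIR5788-p3_2ss1AG24AG (0.98), osa-miR1423-5p_L-2R+2 (0.94) and ata-miR156d-3p_1ss21GC (0.93). Within miR162, osa-miR162b had an r of 0.46 with osa-miR162a, between lus-miR162a_R+2 (0.87) and tcc-miR162_R+1 (0.81) above it and zma-miR162-3p_R+1_1ss20AG (0.32) below it. The libraries share their time points and scaling, so these values describe likeness in this set alone.

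In the degradome, cleavage was listed for 1 miR162 target. The transcript LOC_Os03g02970.1 carried a site at base 2988, the only locus of the family among 478 target loci, and the files give this transcript no annotation. The site was listed 5 times, once for each miR162 sequence, over the same reads, so the reads cannot be assigned to 1 of them. The deposited alignment score was 2 for osa-miR162a, 2.5 for zma-miR162-3p_R+1_1ss20AG and 3 for osa-miR162b, tcc-miR162_R+1 and lus-miR162a_R+2. The alignment to osa-miR162a ran from base 2977 to base 2998, 1 base longer than the miRNA, and the site lay at position 11 counted from the alignment end that pairs with the miRNA 5′ end. Plant miRNAs are known to cleave opposite base 10, where 87.6% of the 1364 listed rows had their site, and 7.33% had it at position 11.

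The site had 5 reads in the 0 h library (exact 95% Poisson interval 1.62 to 11.7), 6 in the 12 h library (2.20 to 13.1) and 2 in the 24 h library (0.242 to 7.22). In the authors' deposited unit TPB, which scales divided reads to the raw reads of a library, the signal was 398 for the 0 h leaves, 544 for the 12 h leaves and 154 for the 24 h leaves. The intervals of the 3 libraries overlap, and with 1 library per time point there is no replicate check. The authors graded the site as category 0, which degradome studies usually give to the highest signal along a transcript, at 0 h and 12 h and as category 2 at 24 h. Of the listed transcript sites with reads, the 0 h library had 14.2% in category 0, the 12 h library 12.6% and the 24 h library 13.4%. Sites with at least as many reads made up 24.2% of those with any in the 0 h library, 12.0% in the 12 h library and 52.2% in the 24 h library, and the median site had 2 reads in each. In the authors' deposited table the p of the site for osa-miR162a was 0.00190 at 0 h, 0.00202 at 12 h and 0.172 at 24 h. The degradome libraries were of like depth, with 12554074 raw reads for 0 h, 11033581 for 12 h and 12960708 for 24 h.

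**Figure D5:**
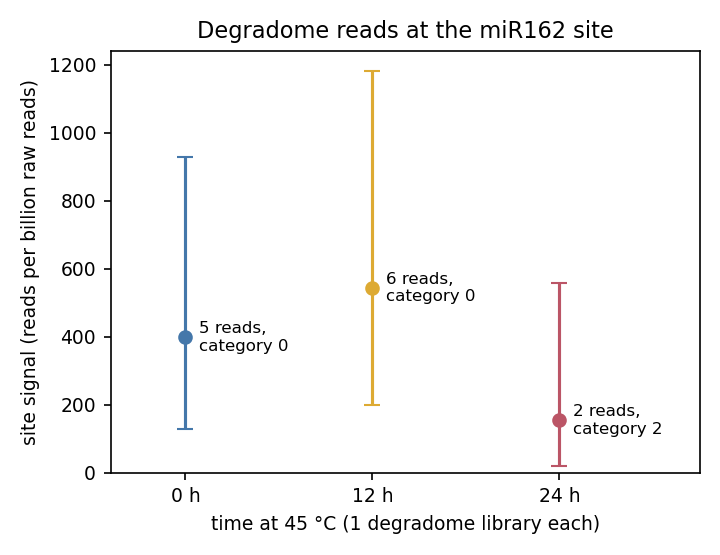
Degradome signal at the miR162 site of LOC_Os03g02970.1 in TPB (divided reads relative to raw reads), 1 library per time point, with exact 95% Poisson intervals (bars). Labels give the reads and the authors' category; the 3 intervals, around 5, 6 and 2 reads, overlap.

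For miR168, 0 of the 1364 listed rows named a site, while its family ranked above miR162 in every small RNA library. Among the same rows 0 had an annotation naming an argonaute, dicer, RNA-dependent RNA polymerase or another protein of the small RNA machinery, and 299 rows had no annotation. The 5 rows of miR162 have none, so a search by annotation cannot say whether their target belongs to that machinery. Cleavage by miR168 at a transcript of that machinery was therefore not analysed here.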

How the data were processed

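Small RNA of 15 to 30 nt was sequenced, per the labels' protocols. The authors deposited raw values per mature sequence as estimated counts, with reads divided among matching positions, and a normalized signal per library, per the file headers; the values show it to be the raw value times 1 constant per library. They also deposited an analysis-of-variance p-value per sequence. For the degradome the deposited values are read counts at each site, divided reads, a signal (TPB, divided reads scaled to raw reads), a category score and p-values. The sources used here name no mapper, database release, genome build or target finder.

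The 588 entries of the list were reduced to 483 distinct sequences, and 132 families were formed by number. Raw values were rounded, since the test was planned for counts, and tested with edgeR 4.0.16 in R 4.3.3 (quasi-likelihood test, 2-sided, TMM, a single fit of the 6 libraries with no term but time point). The filter was 10 reads in at least 2 libraries, which kept 459 sequences and 124 families. Adjustment (Benjamini-Hochberg) ran over all of them, with a threshold of 0.05. The fit shares its spread over sequences (common dispersion 0.219). The weight given to the shared spread (prior degrees of freedom) was infinite. SE and p for sequences therefore reflect the shared spread and not how far a sequence's own replicates lay apart. At 12 h against 0 h the SE was 0.72 for osa-miR162b (1964 and 1691 CPM at 12 h). It was 0.75 for osa-miR168a-5p (64694 and 16975 CPM at 12 h). DESeq2 1.42.0 and limma 3.58.1 served as alternatives. Intervals are exact, at 95%. The fit was tested on simulated data. Replicate numbers showed no clear pairing of the libraries (correlations of deviations from the time-point means of −0.12, 0.15 and −0.22). Columns of other samples: 0 left unused. Named items are all members, the 3 sequences most alike in pattern to the leading member of each family, and degradome rows annotated as small RNA machinery. The members and lists were chosen with earlier results of these data known. None of the 478 target loci matched an ID of the RefSeq table of gene names (0 matched).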

Additional observations from a re-analysis of the deposited data

How the results depend on the processing

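No member was called in any of the 45 fits of the alternatives, of which 32 tested all 7 members. In the other 13, lus-miR162a_R+2, zma-miR162-3p_R+1_1ss20AG or both did not pass the filter or got no adjusted p, which left at least 5. In the same fits, calls among all sequences, the main values included, ran from 0 to 15 at 12 h against 0 h, 8 to 60 at 24 h against 0 h and 0 to 3 at 24 h against 12 h. Recomputed values kept their direction in 85 family log2 changes, 270 sequence log2 changes and 7 share differences, and turned round in 17, 29 and 2; the cause was not tested. osa-miR162b stayed below 0 in all of them, from −1.80 to −1.14 at 24 h against 0 h. For the miR162 family at 24 h against 12 h (0.26) the values were −0.42 with library totals alone and −0.013 with totals minus the top 3 sequences. The deposited 5′ arm alone, which held only zma-miR162-3p_R+1_1ss20AG with 51 reads in all, gave −0.79 there and 0.26 at 12 h against 0 h. For the miR168 family at 24 h against 0 h (−0.03) they were 0.0096 with RLE size factors, 0.0097 with DESeq2, 0.080 with totals minus the top 3 sequences, 0.056 with only the 2 time points compared, and 0.026 with limma on the authors' values at either pseudocount (1 or 10). Its 3′ arm alone gave −0.24 at 12 h against 0 h and 0.10 at 24 h against 12 h. Library totals alone, which move the median of all sequences by −0.51 at 24 h against 0 h, −0.57 at 24 h against 12 h and 0.12 at 12 h against 0 h, gave −0.12 for lus-miR162a_R+2, −0.36 for osa-miR162a and −0.69 for osa-miR168a-3p at 24 h against 12 h, −0.44 for osa-miR168a-5p and −0.58 for its opposite arm at 24 h against 0 h, and 0.11 for osa-miR168a-3p at 12 h against 0 h. Totals minus the top 3 sequences gave osa-miR168a-3p 0.14 at 12 h against 0 h and −0.080 at 24 h against 12 h, and limma gave it −0.16 at 24 h against 0 h with pseudocount 1 or 10. tcc-miR162_R+1 at 24 h against 0 h was 0.060 with RLE, 0.056 with DESeq2 and 0.024 with only the 2 time points compared. Leaving out 1 library at a time gave ranges of −0.91 to 0.36 (24 h against 0 h) and −0.47 to 0.74 (24 h against 12 h) for the miR162 family, and −0.42 to 0.37 (24 h against 0 h) for the miR168 family. For sequences, the ranges that crossed 0 were −0.58 to 0.25 and −0.34 to 0.73 for osa-miR162a, −0.13 to 0.24 and −1.81 to 0.043 for osa-miR168a-5p, and −1.30 to 0.82 and −1.05 to 1.09 for osa-miR168a-3p (24 h against 0 h, then 24 h against 12 h), −1.07 to 0.53 for osa-miR168a-3p at 12 h against 0 h and −0.46 to 0.30 for tcc-miR162_R+1 at 24 h against 0 h. The 5′ arm share of miR168a at 24 h minus 0 h ran from −10.6 to 22.1 percentage points. A time point left with 1 library was assumed to vary like the others. The replicate numbers showed no clear pairing of the libraries. With a replicate block the calls were 7, 29 and 0 against 15, 44 and 1 without it (12 h against 0 h, 24 h against 0 h, 24 h against 12 h). With the block lus-miR162a_R+2 turned to −0.059 at 24 h against 12 h and osa-miR168a-3p to −0.055 at 24 h against 0 h. The 10314 reads of 12 h replicate 3 limit what can be seen of the minor sequences.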
